A study of Saccharomyces cerevisiae with 25 samples.

Results

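The genes described here are 33 genes of sterol metabolism in the budding yeast Saccharomyces cerevisiae, chosen by name from the 6713 genes listed in the series: 9 genes of the mevalonate steps (ERG10, ERG13, HMG1, HMG2, ERG12, ERG8, MVD1, IDI1 and ERG20), 9 that carry farnesyl diphosphate through squalene and lanosterol and remove methyl groups (ERG9, ERG1, ERG7, ERG11, ERG24, ERG25, ERG26, ERG27 and ERG28), 5 of the late steps (ERG6, ERG2, ERG3, ERG5 and ERG4), 2 electron donors (NCP1 and CYB5), 2 sterol acyltransferases (ARE1 and ARE2), 2 sterol uptake transporters (AUS1 and PDR11) and 4 regulators (UPC2, ECM22, SUT1 and MOT3). They were chosen by name and role, with earlier results of these data known. RNA was sequenced from 25 cultures, 5 of each of 5 strains. In the RGT2(V539I), OAF1(L63S) and OLE1(FAR) strains a natural variant had been moved into the laboratory strain BY: a protein change in the glucose sensor Rgt2, a protein change in the oleate-responsive transcription factor Oaf1, and the RM form of the fatty acid regulated element in the promoter of the desaturase gene OLE1. The wild types were YFA1131, in which the BY allele had been put back over an RGT2 deletion cassette and which serves as reference for RGT2(V539I), and YFA1130, in which a GFP tag had been taken off FAA4 and which serves as reference for OAF1(L63S) and OLE1(FAR). Each strain is a haploid derivative of BY4741, a relative of S288C with deletions in HIS3, LEU2, MET15 and URA3, and all cultures grew in one synthetic medium with glucose as the carbon source, with the nutrients that these deletions require. The study's methods give each label as 1 numbered strain grown in separate precultures, so the 5 cultures of a label come from 1 edited strain and the p-values below measure the spread between cultures only.

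Ergosterol is the main sterol of yeast membranes, the counterpart of cholesterol in animals. Its synthesis starts from acetyl-CoA, passes through the mevalonate pathway, whose controlled step is catalysed by the HMG-CoA reductases Hmg1 and Hmg2, and needs molecular oxygen and haem at several later steps. Sterol that is not placed in membranes is esterified with fatty acids by Are1 and Are2 and stored in lipid droplets, and the zinc cluster factors Upc2 and Ecm22 bind sterol response elements in the promoters of many ERG genes.

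All libraries together listed between 9216531 and 14644996 estimated counts each, and 5713 genes had a count above 0 in every library and were tested. Of the cultures, 6 came from harvest batch 1, and OLE1(FAR) had none there. Harvest batch and strain are therefore not balanced. The libraries labelled OAF1(L63S) replicate 2 and OLE1(FAR) replicate 3 stood apart from the others of their label. POX1, the first enzyme of peroxisomal beta-oxidation and a target of Oaf1, was at 1.58 CPM (the count scaled to a common normalised library total) in the library labelled OAF1(L63S) replicate 2, against 17 to 22.8 CPM in the other 4 of that label, and at 28.4 CPM in the library labelled OLE1(FAR) replicate 3, against 0.419 to 2.00 CPM in the other 4 of that label. IZH4 went the other way, with 47.6 CPM in the first of these libraries against 2.63 to 3.67 CPM in the other OAF1(L63S) libraries, and 2.43 CPM in the second against 45.3 to 50.7 CPM in the other OLE1(FAR) libraries. For both genes the first library thus lay within the range of the other 4 OLE1(FAR) libraries. The second lay near the OAF1(L63S) libraries and far from those of its own label. Whether these labels were exchanged was not tested. Both libraries were kept under their labels, so every fit with all libraries holds them there. The fitted differences and ratios of the genes singled out in the comparisons with OAF1(L63S) or OLE1(FAR) are given with and without both.

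All 33 genes were measured in every library, with a lowest count of 98, so none was lost to the filter on low counts. Every count of these genes was a whole number as deposited, with no tolerance, in all libraries, so no fractional count from reads shared between paralogues was present. Together they made up 0.598 to 0.681 percent of a library. On the scale of CPM per kilobase of coding sequence, the median level over the 25 libraries was highest for ERG20, the farnesyl diphosphate synthase, at 612, followed by ERG11, the lanosterol demethylase, at 388, ERG1, the squalene epoxidase, at 366, and ERG25, a methyl sterol oxidase, at 338. The late steps had a median of 264 over their 5 genes, from 74.0 for the desaturase gene ERG5 to 304 for the isomerase gene ERG2. HMG1 (45.4) and HMG2 (32.6) were the lowest of the mevalonate steps. The acyltransferase genes ARE1 (41.7) and ARE2 (47.5) stood in the same range, the 4 regulators between 19.5 (UPC2) and 47.5 (MOT3), and the importers AUS1 and PDR11 at 13.6 and 2.80, the lowest of the 33. The ranges of many neighbours in this order overlapped over the 25 libraries, as for ERG10, ERG2 and ERG3, whereas ERG20 overlapped with no other gene and PDR11 with none.

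**Figure D1:**
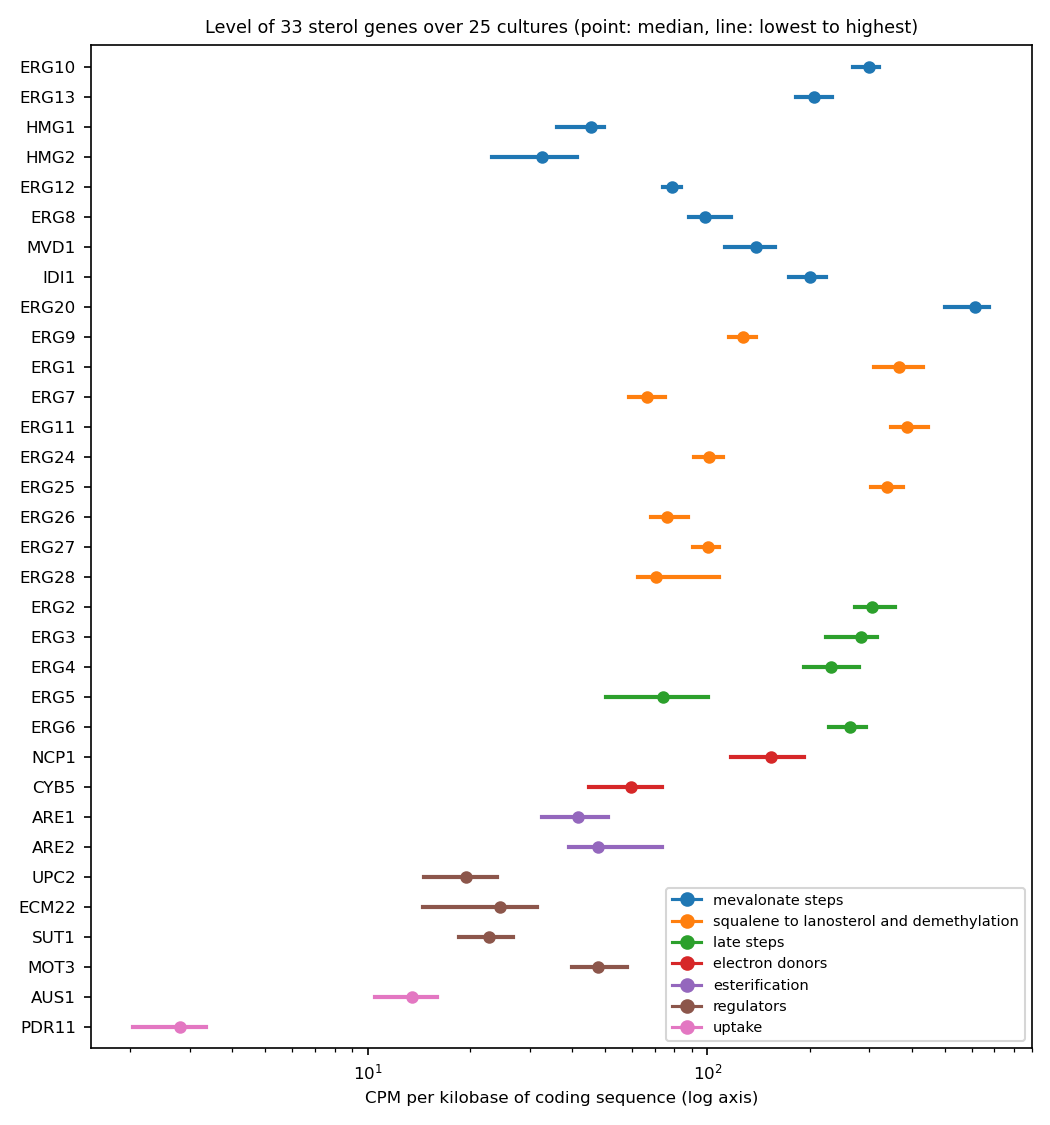
Level of each of the 33 genes in CPM per kilobase of coding sequence on a log axis. The point is the median of 25 libraries and the line runs from the lowest to the highest library, coloured by role. ERG20 sits highest at 612 and PDR11 lowest at 2.80, and the longest lines belong to ECM22, ERG5, ARE2, HMG2 and ERG28.

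The levels varied little between cultures. The median SD of log2 CPM over the 25 libraries was 0.11 for the 33 genes and 0.12 for the 4570 tested genes whose median CPM lay in the same range. For 22 of the 33 genes the highest library was less than 1.5 times the lowest. The steadiest was ERG12, mevalonate kinase, with a highest to lowest ratio of 1.13. The most variable were ECM22 (2.17), ERG5 (2.00), ARE2 (1.87), HMG2 (1.78) and ERG28 (1.72), the scaffold protein of the demethylation complex. The summed CPM of the 23 enzyme and scaffold genes from ERG10 to ERG4 was 5497 ± 133 in RGT2(V539I), 5647 ± 230 in OAF1(L63S) and 5476 ± 114 in OLE1(FAR), against 5527 ± 142 in YFA1131 and 5562 ± 211 in YFA1130 (SD, n = 5 each). The ranges of all 5 strains overlapped, and no test was made on this sum. CPM is a share of the library, so less sterol mRNA per cell and more of all other mRNA cannot be told apart.

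The sequences upstream of the genes were read from the S. cerevisiae R64 genome (RefSeq), the build of the transcriptome used for counting. The core letters of the sterol response element, TCGTATA, and its reverse complement TATACGA, searched on both strands (the words can overlap by the letters TATA), were found in the window from 250 bases before to 50 bases after the start codon in 3 of the 33 genes (9.09 percent) and in 249 of 6007 coding genes (4.15 percent). In the 500 bases before the start codon, a window chosen after the first search, they were found in 9 of the 33 genes (27.3 percent) and in 420 of 6006 coding genes (6.99 percent). The 9 were ERG13, ERG8, ERG1, ERG25, ERG28, ERG2, ERG3, ERG6 and CYB5, and ERG13, ERG25 and ERG3 held the letters at more than one place. ERG13, ERG8 and ERG3 are shown because each was also called in a comparison below. The letters of the core are in capitals within 57 bases, and each line is read on the strand of the gene.
ERG13, chrXIII:20718-20774, minus strand, core starting 214 bases before the start codon: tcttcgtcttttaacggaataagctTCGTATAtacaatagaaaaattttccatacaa
ERG13, chrXIII:20605-20661, minus strand, core starting 101 bases before the start codon: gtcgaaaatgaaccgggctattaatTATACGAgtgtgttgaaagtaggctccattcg
ERG8, chrXIII:712139-712195, plus strand, core starting 152 bases before the start codon: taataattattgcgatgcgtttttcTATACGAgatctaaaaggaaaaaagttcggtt
ERG3, chrXII:253510-253566, plus strand, core starting 326 bases before the start codon: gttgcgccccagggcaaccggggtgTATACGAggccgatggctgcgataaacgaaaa
ERG3, chrXII:253550-253606, plus strand, core starting 286 bases before the start codon: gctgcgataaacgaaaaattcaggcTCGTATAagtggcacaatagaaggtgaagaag
HMG2 and ARE2, which changed most in the comparisons below, did not hold these letters in either window, nor did the 4 regulators, the importers or ARE1. A match of letters is a description of the sequence only.

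The comparison of RGT2(V539I) with YFA1131 asks whether a change in the glucose sensor moved sterol genes. None of the 33 genes passed an FDR of 10% in edgeR's quasi-likelihood test, where 0.525 percent of all tested genes did, and 3 of the 33 had an unadjusted p under 0.05 (ERG13, CYB5 and AUS1), or 9.09 percent against 6.53 percent of all tested genes. The number of called genes was also 0 with DESeq2. The largest difference was that of CYB5, cytochrome b5, an electron donor to sterol desaturation. CYB5 was at 17.8, 24.2, 22.6, 20.1 and 26.7 CPM in RGT2(V539I), against 16.2, 17.8, 19.4, 19.9 and 16.6 CPM in YFA1131. The lowest RGT2(V539I) culture lay among the YFA1131 cultures, and the fitted log2 fold change was 0.23 ± 0.097 (SE, edgeR adjusted p = 0.621). Without RGT2(V539I) replicate 1, the culture with 17.8 CPM, it was 0.42 (edgeR adjusted p = 0.0608), the 1 setting in which a gene of the 33 was called here. With both wild types as control it was 0.029 (edgeR adjusted p = 1.0), since CYB5 stood at 21.6 to 23.9 CPM in YFA1130, within the range of RGT2(V539I). By role, the median log2 fold changes ran from -0.08 for the importers to 0.10 for the electron donors, and over all 33 genes the median was -0.02, against -0.01 over all tested genes. Ranges of the strains overlapped for all 33 genes, where 1.33 percent of all tested genes had none.

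Oaf1 is known as an activator of genes for peroxisomes and fatty acid oxidation. In OAF1(L63S), 3 of the 33 genes rose against YFA1130 and none fell, where 1.23 percent of all tested genes were called. They were ARE2 (YNR019W), the major sterol acyltransferase gene, ERG3 (YLR056W), the sterol desaturase gene of a late step, and ERG8 (YMR220W), the phosphomevalonate kinase gene. At an unadjusted p under 0.05 there were 6 of the 33 (18.2 percent), against 5.99 percent of all tested genes. Over the 33 genes the median log2 fold change was 0.02, against -0.01 over all tested genes. None of the 3 calls stood with strain as the only term or with all libraries and no surrogate variables (terms estimated from the data for unlabelled variation), and all 3 stood without surrogate variables once both libraries that stand apart were left out.

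ARE2 (chrXIV:665339-667267, a single coding exon on the plus strand) was at 142, 91.6, 131, 141 and 105 CPM in OAF1(L63S), against 98.3, 93.2, 97.1, 87.9 and 75.8 CPM in YFA1130. The library labelled OAF1(L63S) replicate 2, which stands apart, was the one at 91.6 CPM, and the other 4 all lay above every YFA1130 culture. The fitted log2 fold change was 0.53 ± 0.084 (SE, edgeR adjusted p = 0.00149), and 0.57 without both libraries that stand apart (adjusted p = 0.000196). Within harvest batches the log2 ratio of means was 0.02 in batch 1, where 1 of the 2 OAF1(L63S) libraries stands apart, 0.49 in batch 2 and 0.70 in batch 3. Without YFA1130 replicate 5 the fitted value was 0.40 and no longer called. Without surrogate variables it was 0.47 and not called (adjusted p = 0.155), and without them and both libraries that stand apart it was 0.56 and called (adjusted p = 0.000997). ARE1, the paralogue, was at 76.3, 76.1, 73.9, 75.8 and 60.3 CPM in OAF1(L63S), against 74.2, 77.8, 76.8, 70.3 and 64.2 CPM in YFA1130, with a fitted log2 fold change of 0.01.

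ERG3 (chrXII:253861-254958, a single coding exon on the plus strand), with the core letters at a pair of places upstream, was at 347, 286, 325, 326 and 310 CPM in OAF1(L63S), against 293, 311, 286, 267 and 277 CPM in YFA1130. Replicate 2, which stands apart, and replicate 5 lay among the YFA1130 cultures, and the other 3 were above all of them. Its fitted log2 fold change was 0.18 ± 0.035 (SE, edgeR adjusted p = 0.0108) and 0.20 without both libraries that stand apart. The call was lost without OAF1(L63S) replicate 1 (0.15), YFA1130 replicate 3 (0.16) or YFA1130 replicate 5 (0.15). With both wild types as control it was 0.078 and not called (edgeR adjusted p = 0.638), and ERG3 was also higher in YFA1131 than in YFA1130, as given below. It was not called without surrogate variables (0.16) or without the RNA isolation batches as a block (0.17) either.

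ERG8 (chrXIII:712316-713671, a single coding exon on the plus strand) was at 159, 138, 140, 146 and 150 CPM in OAF1(L63S), against 142, 131, 129, 127 and 135 CPM in YFA1130. Only the highest YFA1130 culture reached into the OAF1(L63S) values. The fitted log2 fold change was 0.17 ± 0.038 (SE, edgeR adjusted p = 0.0357). It was called without both libraries that stand apart (0.18) and was not called without OAF1(L63S) replicate 1 (0.14) or replicate 5 (0.17), or without YFA1130 replicate 2 (0.15), replicate 3 (0.16) or replicate 5 (0.13). It was also not called without surrogate variables (0.14), without the RNA isolation batches as a block (0.15) or with 4 library preparation batches (0.12).

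The largest difference that was not called was that of HMG2 (YLR450W, chrXII:1032627-1035764, a single coding exon on the plus strand), the less abundant of the reductase genes. HMG2 was at 89.5, 126, 91.9, 80.7 and 72.9 CPM in OAF1(L63S), against 102, 102, 106, 100 and 95.1 CPM in YFA1130. The library that stands apart held the value of 126 CPM, and the other 4 were all below every YFA1130 culture. The fitted log2 fold change was -0.21 ± 0.071 (SE, edgeR adjusted p = 0.336). Without both libraries that stand apart it was -0.25 (adjusted p = 0.0475), which passes the threshold. Over the whole list, SUT1 was the 1 gene whose strains did not overlap, with 18.7 to 20.5 CPM in OAF1(L63S) against 20.5 to 21.6 CPM in YFA1130 and a fitted log2 fold change of -0.10 that was not called. Of all tested genes, 0.263 percent had strains that did not overlap in this comparison.

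**Figure D2:**
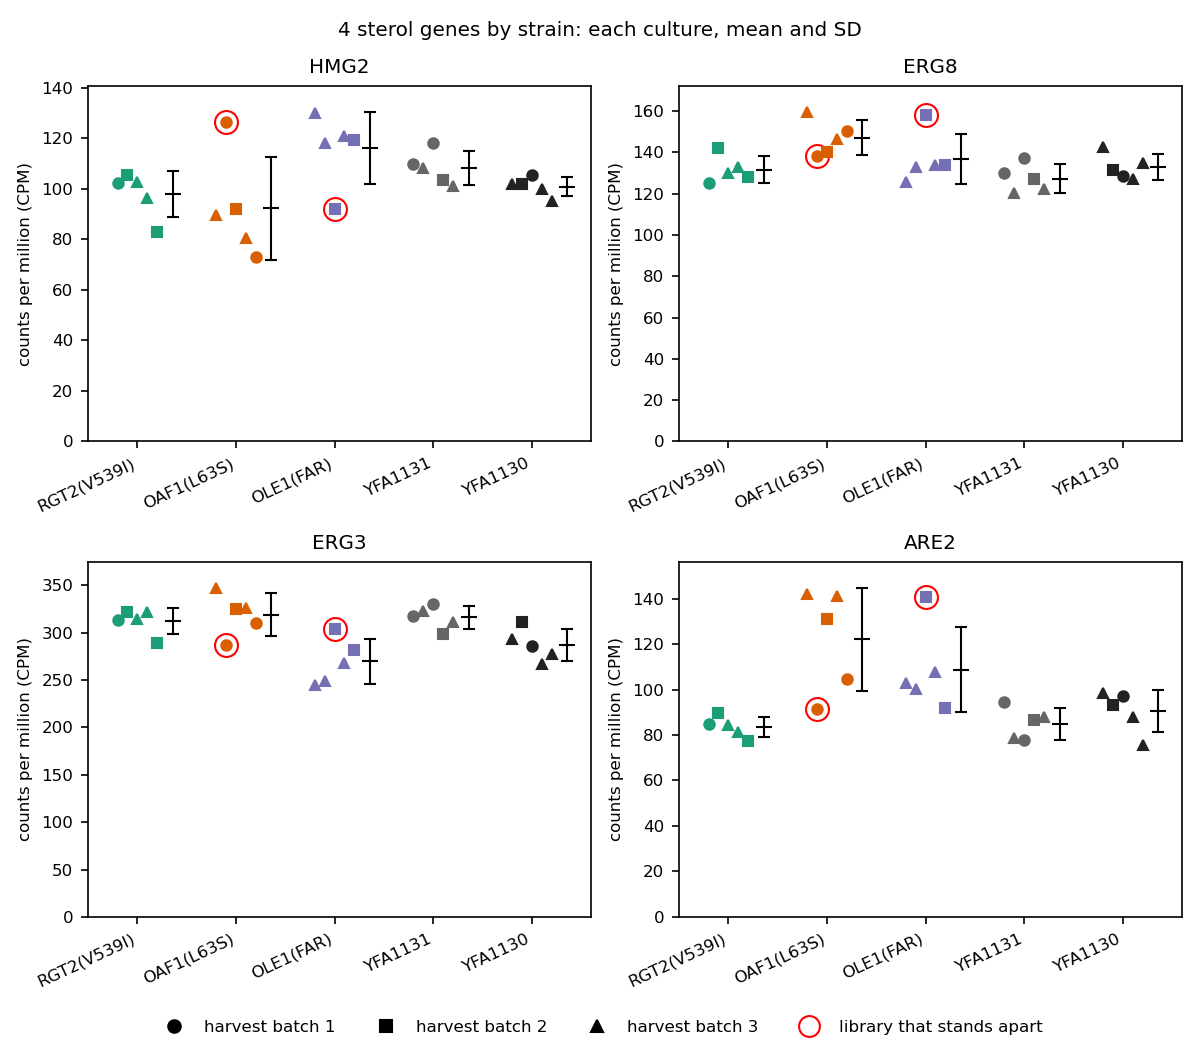
CPM of HMG2, ERG8, ERG3 and ARE2 in each culture by strain, with the mean and SD of each strain beside the points. Marker shapes give the harvest batch and red rings mark the libraries labelled OAF1(L63S) replicate 2 and OLE1(FAR) replicate 3. For ARE2 the ringed OAF1(L63S) library lies at 91.6 CPM, below its other 4, and the ringed OLE1(FAR) library at 141 CPM, above its other 4.

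The OLE1(FAR) comparison asks what follows from a change in the promoter of OLE1, whose product makes unsaturated fatty acids. In OLE1(FAR), 1 of the 33 genes was called against YFA1130, HMG2, which rose, where 0.893 percent of all tested genes were called. At an unadjusted p under 0.05 there were 6 of the 33 (18.2 percent), against 8.42 percent of all tested genes. HMG2 was at 130, 118, 92.1, 121 and 119 CPM in OLE1(FAR), against 102, 102, 106, 100 and 95.1 CPM in YFA1130. The library labelled OLE1(FAR) replicate 3, which stands apart, was at 92.1 CPM, below every YFA1130 culture, and the other 4 were above every YFA1130 culture. The fitted log2 fold change was 0.34 ± 0.072 (SE, edgeR adjusted p = 0.0294), and 0.27 without both libraries that stand apart (adjusted p = 0.0969). The call was lost without OLE1(FAR) replicate 1 (0.22), replicate 3 (0.27) or replicate 5 (0.28), and without YFA1130 replicate 2 (0.25) or replicate 3 (0.24). Within harvest batch 3 (n = 3 and n = 3), where no library stands apart, the log2 ratio of means was 0.31. Within batch 2 (n = 2 and n = 1), where 1 of the 2 OLE1(FAR) libraries stands apart, it was 0.05. The call was also lost without surrogate variables (0.23, edgeR adjusted p = 0.944), without the RNA isolation batches as a block (0.19) and with 4 library preparation batches (0.17). Without surrogate variables and both libraries that stand apart it was 0.28 and called (adjusted p = 0.0702).

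The late steps and demethylation steps gave no call in OLE1(FAR). The largest difference that was not called was that of ERG5 (YMR015C), the desaturase gene that acts on the sterol side chain. ERG5 was at 81.6, 105, 163, 119 and 120 CPM in OLE1(FAR), against 119, 130, 148, 110 and 111 CPM in YFA1130. The value of 163 CPM, the highest of all 25 libraries, belonged to the library that stands apart. The fitted log2 fold change was -0.17 ± 0.054 (SE, edgeR adjusted p = 0.255), and -0.16 without both libraries that stand apart (adjusted p = 0.6). ERG3 had a fitted log2 fold change of -0.14 (adjusted p = 0.117). The median over the 5 late steps was -0.06 and over all 33 genes 0.00, as over all tested genes. The strains overlapped for all 33 genes, where 0.28 percent of all tested genes had none.

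OAF1(L63S) was compared directly with OLE1(FAR), since each has YFA1130 as its reference and a difference in calls between them would not by itself show that they differ. This direct test called 6 of the 33 genes, where 3.08 percent of all tested genes were called. At an unadjusted p under 0.05 there were 15 of the 33 (45.5 percent), against 11.1 percent of all tested genes. HMG2 and ERG13 were lower and ERG3, ERG5, ERG8 and ARE2 were higher in OAF1(L63S) than in OLE1(FAR). HMG2 averaged 92.3 ± 20.5 CPM in OAF1(L63S) and 116 ± 14.2 CPM in OLE1(FAR) (SD, n = 5 each), with a fitted log2 fold change of -0.55 ± 0.084 (SE, edgeR adjusted p = 0.000422). Without both libraries that stand apart the means were 83.8 ± 8.69 and 122 ± 5.41 CPM, the strains did not overlap, and the fitted value was -0.52 (adjusted p = 0.000204). The call stood when any 1 library was left out. It was lost without surrogate variables (-0.37, adjusted p = 0.165) and with strain as the only term (-0.33), and stood without surrogate variables and both libraries that stand apart (-0.53).

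ERG3 averaged 319 ± 22.5 CPM in OAF1(L63S) and 270 ± 24.2 CPM in OLE1(FAR) (SD, n = 5 each), with a fitted log2 fold change of 0.32 ± 0.041 (SE, edgeR adjusted p = 8.1e-05). This call also stood without any 1 library, without both that stand apart, and without surrogate variables (0.27), and was lost with strain as the only term (0.24). The remaining 4 calls were smaller or rested on more of the libraries. ARE2 had a fitted log2 fold change of 0.39 (edgeR adjusted p = 0.0423), ERG5 of 0.25 (adjusted p = 0.0253), ERG8 of 0.20 (adjusted p = 0.0222) and ERG13, HMG-CoA synthase, of -0.13 (adjusted p = 0.0983). ERG13 lost its call without any 1 of the 10 libraries (-0.14 to -0.07). It also lost its call in 9 of the 10 other settings, the DESeq2 Wald test among them. ERG8 lost its call without OAF1(L63S) replicate 1 (0.14) or without OLE1(FAR) replicate 3 (0.16), replicate 4 (0.15) or replicate 5 (0.16). ERG5 lost its call without OAF1(L63S) replicate 1 (0.16), replicate 3 (0.21) or replicate 5 (0.26), or without OLE1(FAR) replicate 1 (0.17), replicate 3 (0.15) or replicate 5 (0.16). ARE2 lost its call without OAF1(L63S) replicate 1 (0.34), replicate 3 (0.37) or replicate 4 (0.28), or without OLE1(FAR) replicate 2 (0.28), replicate 3 (0.35) or replicate 5 (0.24).

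Without both libraries that stand apart all 6 of these genes were called, and without both and without surrogate variables HMG2, ERG8, ERG3 and ARE2 were. The largest difference that was not called was that of ERG28 (0.28 ± 0.085 SE, edgeR adjusted p = 0.121), which was 0.30 without both libraries (adjusted p = 0.202). With all libraries kept, the strains overlapped for all 33 genes, where 0.543 percent of all tested genes had none. Within harvest batch 3, where no library stands apart, the mean CPM in OAF1(L63S) (n = 2) over that in OLE1(FAR) (n = 3) gave log2 ratios of -0.53 for HMG2, 0.41 for ERG3, 0.35 for ERG5, 0.23 for ERG8, 0.45 for ARE2 and -0.07 for ERG13. All 6 had the direction of the fit over all batches. Within harvest batch 2 (n = 1 and n = 2, of which 1 stands apart) the log2 ratios were -0.20 for HMG2, 0.15 for ERG3, -0.06 for ERG5, -0.06 for ERG8, 0.17 for ARE2 and -0.01 for ERG13.

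**Figure D3:**
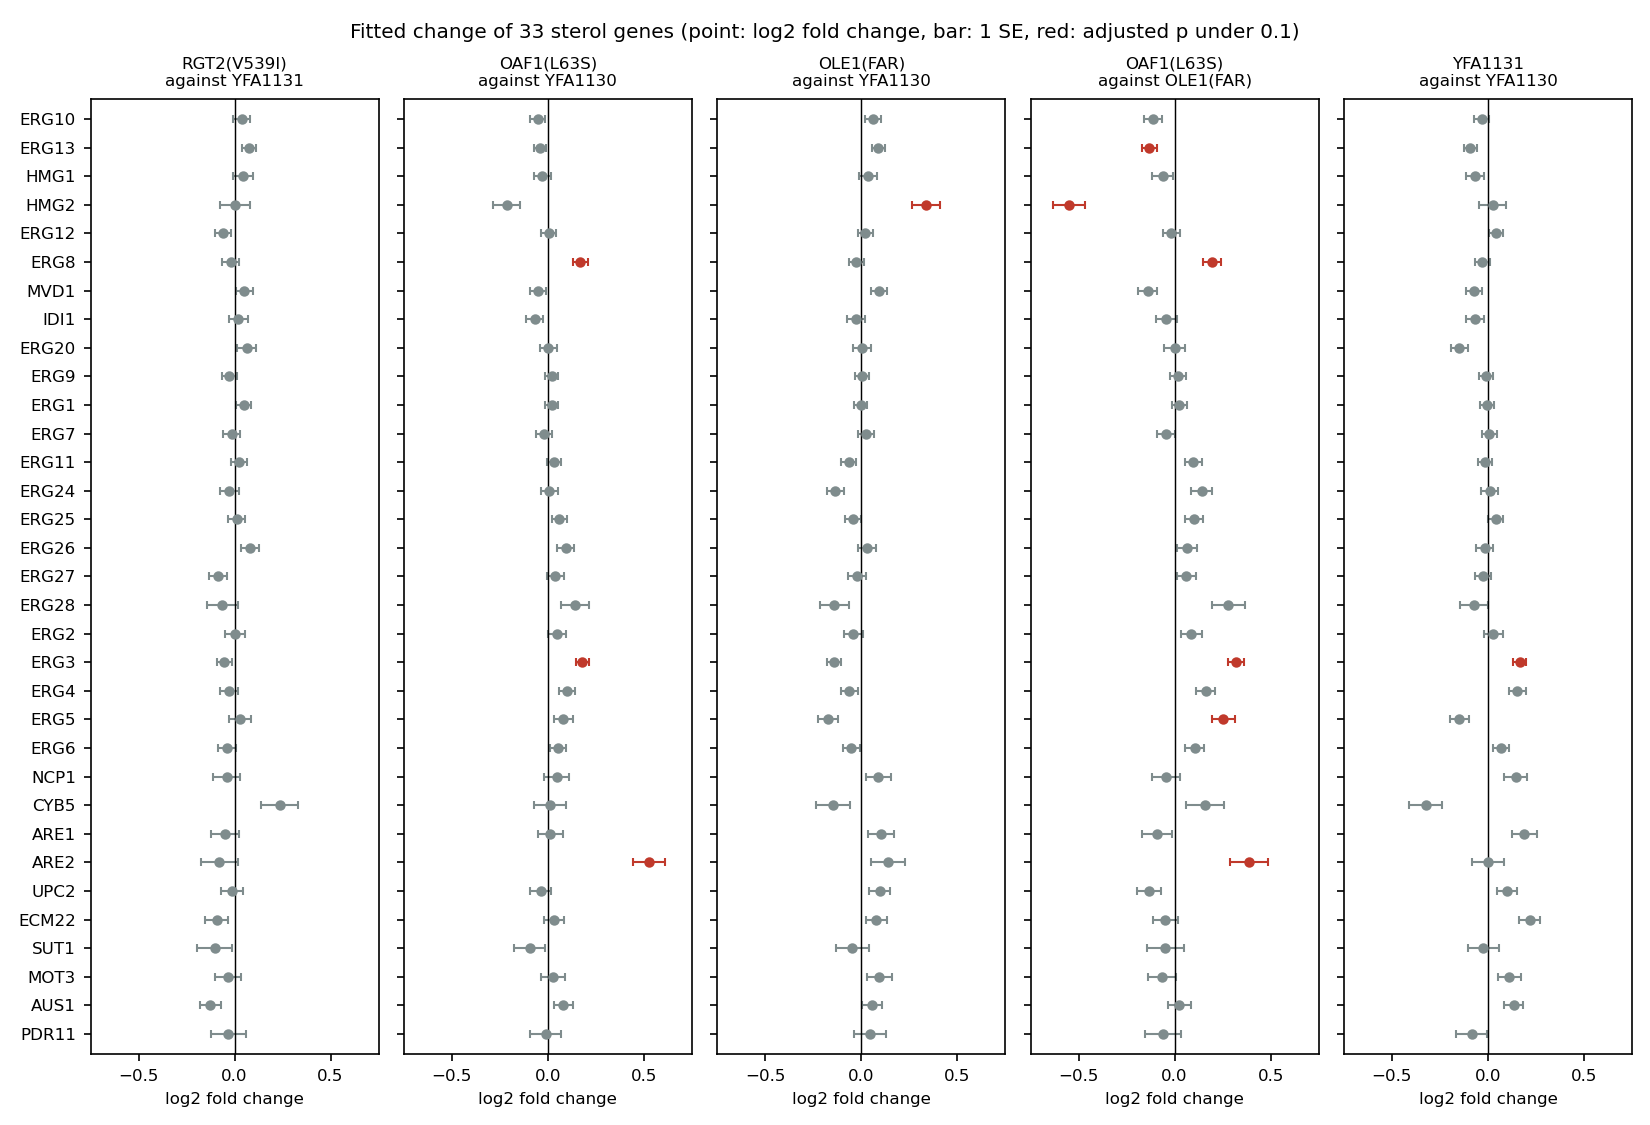
Fitted log2 fold change of the 33 genes in 5 comparisons between strains, with bars of 1 SE and red points for an adjusted p under 0.1. OAF1(L63S) against OLE1(FAR) has 6 red points, led by HMG2 at -0.55 and ARE2 at 0.39, and RGT2(V539I) against YFA1131 has none.

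The wild types were compared with each other because each serves as a reference. In YFA1131, 1 of the 33 genes was called against YFA1130, ERG3, which rose, where 0.175 percent of all tested genes were called. At an unadjusted p under 0.05 there were 10 of the 33 (30.3 percent), against 9.70 percent of all tested genes. ERG3 was at 318, 323, 330, 298 and 312 CPM in YFA1131, against 293, 311, 286, 267 and 277 CPM in YFA1130. The strains overlapped through the lowest YFA1131 culture and the highest YFA1130 culture. The fitted log2 fold change was 0.17 ± 0.035 (SE, edgeR adjusted p = 0.0998), just inside the threshold. The call was lost without YFA1131 replicate 1 (0.17), replicate 2 (0.17), replicate 3 (0.17) or replicate 5 (0.16), and without YFA1130 replicate 1 (0.16), replicate 3 (0.15) or replicate 5 (0.12). It was lost as well without surrogate variables, without the block, with 4 library preparation batches, with strain alone and with no filter on low counts. YFA1130 is also the reference of the ERG3 difference in OAF1(L63S) above, so these values share their control cultures.

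CYB5 had the largest difference between the wild types that was not called. CYB5 was at 16.2, 17.8, 19.4, 19.9 and 16.6 CPM in YFA1131, against 23.8, 21.6, 23.2, 22.2 and 23.9 CPM in YFA1130, with no overlap. Of all tested genes, 0.42 percent had no overlap between these strains. Its fitted log2 fold change was -0.33 ± 0.086 (SE, edgeR adjusted p = 0.2), and -0.33 without both libraries that stand apart (adjusted p = 0.0751). That last fit called 5 of the 33 genes, ERG3, ERG5, CYB5, ARE1 and ECM22, where 2.82 percent of all tested genes were called. In it ECM22 had a log2 fold change of 0.30 (adjusted p = 0.00466), against 0.22 (adjusted p = 0.153) with all libraries.

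The reductase and acyltransferase genes come as pairs of paralogues, so the ratio within each pair was taken in every library, a comparison chosen after the values were seen. ARE2/ARE1 was 1.86, 1.20, 1.77, 1.86 and 1.74 in OAF1(L63S), against 1.32, 1.20, 1.26, 1.25 and 1.18 in YFA1130. The value of 1.20 in OAF1(L63S) belonged to the library that stands apart, and the highest ratio of all, 2.35, to the library labelled OLE1(FAR) replicate 3, whose other 4 had 1.20 to 1.33. The exact two-sided permutation test of OAF1(L63S) against YFA1130 gave p = 0.0317, or 0.119 adjusted over the 15 tests made on ratios of this kind (3 pairs of genes and 5 comparisons), with 0.00794 as the smallest p that 5 against 5 can give. Leaving out both libraries that stand apart, the means were 1.81 ± 0.063 in OAF1(L63S) (SD, n = 4) and 1.24 ± 0.0571 in YFA1130 (n = 5), and the exact permutation p was 0.0159, the smallest that 4 against 5 can give. HMG2/HMG1 averaged 0.651 ± 0.101 in OAF1(L63S), 0.809 ± 0.0617 in OLE1(FAR) and 0.716 ± 0.0692 in RGT2(V539I), against 0.790 ± 0.0629 in YFA1131 and 0.703 ± 0.0525 in YFA1130 (SD, n = 5 each). The exact permutation test of OLE1(FAR) against YFA1130 gave p = 0.0238, or 0.119 adjusted. YFA1131 against YFA1130 and OAF1(L63S) against OLE1(FAR) each gave an exact permutation p of 0.0317, or 0.119 adjusted. The log2 difference of the ratio was 0.17 between the wild types and 0.20 between OLE1(FAR) and YFA1130. The permutation tests took no account of the batches. HMG2/HMG1 was highest of its strain in a culture of harvest batch 1 in RGT2(V539I) (0.829), YFA1131 (0.892) and YFA1130 (0.790), and OLE1(FAR) had no culture there. These p-values therefore do not separate strain from harvest batch. Within harvest batch 3, HMG2/HMG1 was 0.895, 0.829 and 0.784 in OLE1(FAR), against 0.648, 0.697 and 0.696 in YFA1130. In that batch it was 0.735 and 0.753 in YFA1131, and 0.587 and 0.554 in OAF1(L63S). No test was made within the batch. When both libraries that stand apart were left out, the exact permutation p was 0.0317 for OAF1(L63S) and for OLE1(FAR), each against YFA1130, and 0.0286 between them, the smallest that 4 against 4 can give. Over the 9 tests made without both libraries, the lowest adjusted p was 0.0571. UPC2/ECM22 averaged between 0.911 and 0.971 in the 5 strains. No ratio passed 0.05 after adjustment, with or without both libraries.

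**Figure D4:**
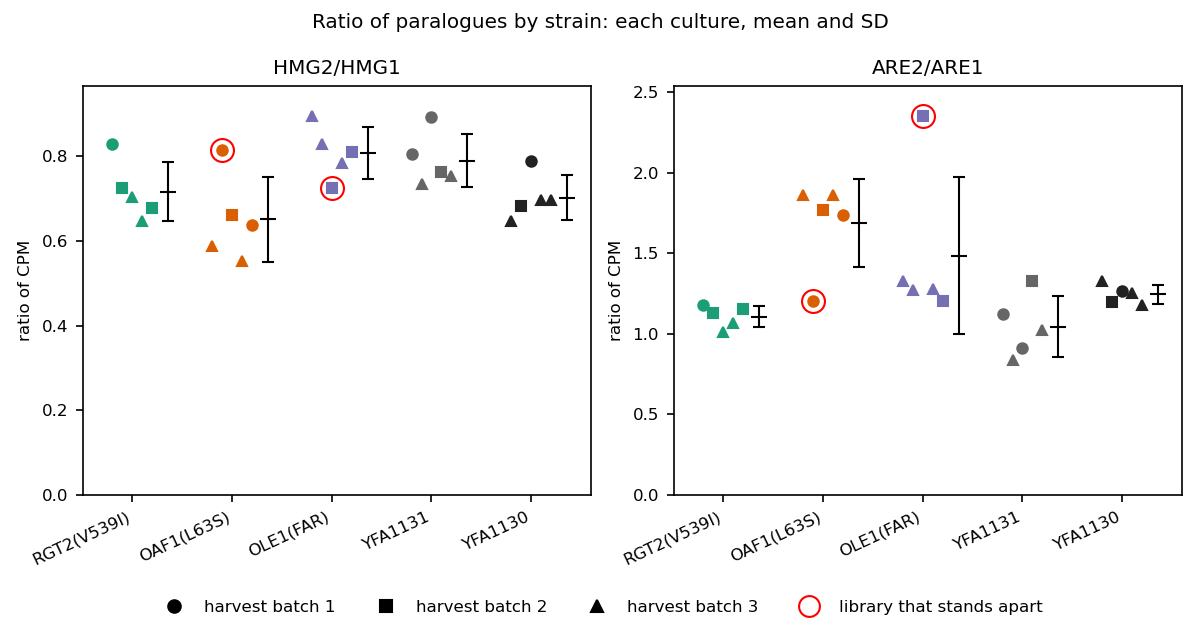
Ratio of CPM of HMG2 to HMG1 and of ARE2 to ARE1 in each culture by strain, with the mean and SD of each strain. Marker shapes give the harvest batch and red rings mark the libraries that stand apart. The ARE2/ARE1 ratio lies between 1.74 and 1.86 in the 4 OAF1(L63S) cultures without a ring.

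Harvest batches are the sets in which cultures were collected, as numbered in the sample table of the study. In the fit with surrogate variables, 3 of the 33 genes were called between harvest batch 1 and harvest batches 2 and 3, where 2.19 percent of all tested genes were called, and 10 (30.3 percent) had an unadjusted p under 0.05, against 11.4 percent of all tested genes. They were HMG2 (0.51 ± 0.12 SE, edgeR adjusted p = 0.0426), ERG8 (-0.26 ± 0.067 SE, adjusted p = 0.0671) and ARE2 (-0.56 ± 0.15 SE, adjusted p = 0.08). Their CPM did not separate the batches. HMG2 averaged 106 ± 18.4 CPM in harvest batch 1 (SD, n = 6) and 102 ± 12.9 CPM in batches 2 and 3 (n = 19), and ARE2 91.8 ± 9.52 and 99.9 ± 22.3 CPM. Without both libraries that stand apart none of these was called, and HMG2 (-0.16) and ARE2 (0.08) changed sign. HMG2 lost its call without OAF1(L63S) replicate 2 (0.24) or YFA1130 replicate 5 (0.26). ERG8 lost its call without any 1 of 8 libraries and ARE2 without any 1 of 12, OAF1(L63S) replicate 2 and OLE1(FAR) replicate 3 among both, with values of -0.29 to -0.12 for ERG8 and -0.54 to -0.30 for ARE2. Between harvest batches 2 and 3, none of the 33 genes was called in edgeR or in DESeq2, 1 (3.03 percent) had an unadjusted p under 0.05 (ERG24, -0.12), against 5.48 percent of all tested genes, and 0.07 percent of all tested genes were called. The largest difference there was that of ARE2 (-0.21).

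ECM22 (YLR228C, chrXII:600019-602463, a single coding exon on the minus strand), a transcriptional activator of ERG genes, showed the widest range of the 33 genes. ECM22 had a lowest, median and highest value of 35.5, 49.6 and 59.8 CPM in harvest batch 1, of 40.5, 58.3 and 63.8 CPM in batch 2 and of 60.0, 63.2 and 76.9 CPM in batch 3. No culture of batch 1 reached the lowest of batch 3, by a narrow margin (59.8 against 60.0 CPM). The share of all tested genes that separate these batches in this way was not counted. The highest of batch 1 was the library labelled OAF1(L63S) replicate 2, and the lowest of batch 2 the library labelled OLE1(FAR) replicate 3, both of which stand apart. Within strains, the mean in batch 1 over the mean in batches 2 and 3 gave log2 ratios of -0.32 in RGT2(V539I), -0.38 in OAF1(L63S), -0.46 in YFA1131 and -0.60 in YFA1130, with 1 or 2 cultures in batch 1. The same direction was present in all 4 strains that had a culture in batch 1.

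The fitted difference of ECM22 depended on the surrogate variables. With them and all libraries it was 0.03 and not called. Without them it was -0.47 (edgeR adjusted p = 0.00056), in a fit that called 30.0 percent of all tested genes. Without both libraries that stand apart it was -0.52 with surrogate variables (adjusted p = 0.0164) and -0.55 without (adjusted p = 4.47e-07). The first surrogate variable lay between -0.40 and -0.28 in 5 of the 6 libraries of harvest batch 1 and at -0.32 in the library labelled OLE1(FAR) replicate 3, and at 0.06 in the library labelled OAF1(L63S) replicate 2. It thus moved with harvest batch, and its part in the fitted value was not tested further. UPC2, the paralogue of ECM22 and the main sensor of low sterol, averaged 49.6 ± 5.08 CPM in batch 1 (SD, n = 6), 51.8 ± 4.44 CPM in batch 2 and 58.1 ± 4.81 CPM in batch 3, and its batches overlapped. Between batch 1 and the later batches, UPC2 had a fitted log2 fold change of 0.13 in the model used and was not called (edgeR adjusted p = 0.677). UPC2 was called there in the fits without surrogate variables. With all libraries, that fit called 30.0 percent of all tested genes, and the share without both libraries is not given here. The summed CPM of the 23 enzyme and scaffold genes averaged 5543 ± 146, 5543 ± 167 and 5540 ± 192 in harvest batches 1, 2 and 3.

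**Figure D5:**
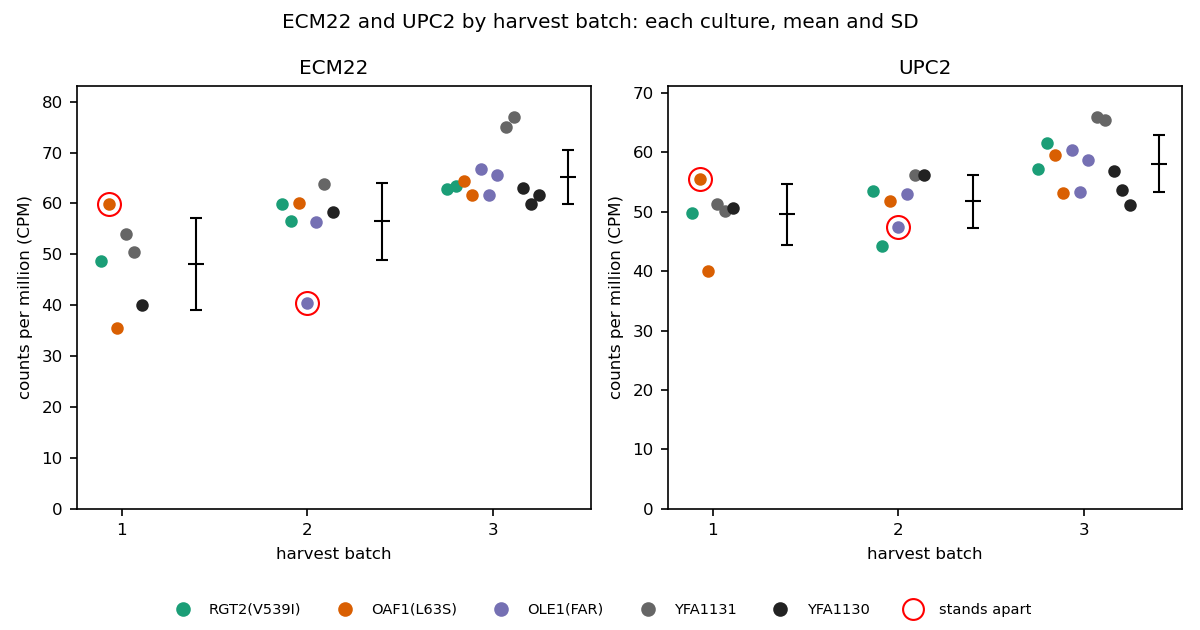
CPM of ECM22 and UPC2 in each culture by harvest batch, coloured by strain, with the mean and SD of each batch. Red rings mark the libraries that stand apart. For ECM22 all cultures of batch 3 lie at 60.0 CPM or above and all of batch 1 at 59.8 CPM or below.

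Other genes that touch the pathway were followed as lists. Of 29 other genes of sterol handling (storage, transport between membranes and degradation of sterol enzymes), none was called in 6 of the 7 comparisons. In OAF1(L63S) against OLE1(FAR), where 3.08 percent of all tested genes were called, 3 of the 29 were lower: OSH6 (-0.36) and OSH3 (-0.17), lipid and sterol transfer proteins, and HRD1 (-0.24), the ubiquitin ligase that degrades Hmg2. With both libraries that stand apart left out, the values were -0.33 for OSH6, -0.17 for OSH3 and -0.21 for HRD1, and all 3 were called. The median of the list was -0.04 there, against 0.00 over all tested genes. Of 8 genes of other branches from farnesyl diphosphate, such as ubiquinone and dolichol synthesis, none was called in any of the 7 comparisons. Of 12 genes of the response to low oxygen, among them ROX1, which codes for a repressor of that response, 11 were tested. DAN4, a cell wall mannoprotein gene, was the 1 gene called in OLE1(FAR) against YFA1130 (0.33, edgeR adjusted p = 0.0646), where 0.893 percent of all tested genes were called, and it was not called without both libraries (0.35, adjusted p = 0.117). DAN4 (-0.42) and the haem synthesis gene HEM13 (-0.31) were lower in OAF1(L63S) than in OLE1(FAR) (edgeR adjusted p = 0.0104 for both), and were called without both libraries as well (-0.44 for DAN4 and -0.29 for HEM13). No gene of this list was called in the other 5 comparisons. Leaving out both libraries added calls between the wild types, for YEH1 (0.24), a sterol ester hydrolase gene, and HEM13 (0.19). That fit called 2.82 percent of all tested genes between the wild types, against 0.175 percent with all libraries. It also added calls between harvest batch 1 and the later batches, for YEH1 (-0.55), LAM6 (0.39) and TIR4 (-0.71), where the share over all tested genes is not given here. At an unadjusted p under 0.05, each comparison held 0 to 7 genes of the first list, 0 or 1 of the second and 0 to 3 of the third in edgeR's test, where 5.48 to 11.4 percent of all tested genes had such a p. The 7 of 29 were in OAF1(L63S) against OLE1(FAR), where the share of all tested genes was 11.1 percent. The 3 of 11 were between the wild types (9.70 percent) and between harvest batch 1 and the later batches (11.4 percent).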

How the data were processed

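RNA of 25 cultures was selected for poly-A, made into stranded libraries and sequenced. The authors deposited one table of estimated counts per gene, made with kallisto (version not given in the sources used here) on the Ensembl transcriptome of the R64 genome (sacCer3) after trimming with Trimmomatic 0.38, with reads converted by bcl2fastq 2.20.0.422 per the submitters' processing notes. A kallisto estimated count can be split between similar transcripts, and 6.55 percent of deposited values were not whole. Totals ran from 9216531 to 14644996 (median 11038274). The lowest count of a gene described here was 98, in PDR11. At the counts of the lowest genes, such as PDR11, CYB5 and SUT1, counting error is part of the spread between cultures.

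Strains came from the labels, replicate numbers follow accession order, and batches (3 of harvest, 5 of RNA isolation, 2 of library preparation) came from the study's sample table. Counts were rounded and tested in edgeR 4.0.16 (R 4.3.3, limma 3.58.1) with TMM scaling and the quasi-likelihood test on the 5713 genes of 6713 with a count above 0 in all 25 libraries. One model held strain, the batches and 2 surrogate variables from svaseq (sva 3.50.0), with 11 residual degrees of freedom, after the design the study states. P-values were adjusted by Benjamini-Hochberg over all tested genes, and a gene was called at an FDR of 10%. The RNA isolation batches each held 1 culture of every strain and served as the replicate block. Deviations within these batches correlated from -0.47 to 0.53 over 20 pairs of cultures (4 strain comparisons in 5 batches), above 0.1 in 10. No 2 cultures of a strain agreed within sampling noise (chi-square per degree of freedom 5.32 to 52.5 over 50 pairs). Ratios of paralogues were tested by exact permutation across cultures, without batch terms (SciPy 1.17.1), and figures drawn with matplotlib 3.10.9. The test was run on simulated counts that held no batch effects. That check does not cover the batches or the libraries that stand apart.

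All 33 genes are named, with full statistics for those called in a comparison and for the largest difference not called, and others by counts and ranges. The 33 genes and the gene lists were chosen with earlier results of these data known. Alternatives were DESeq2 1.42.0 (scaling and Wald test), no filter or at least 10 counts in every library, no surrogate variables, no block, 4 library preparation batches, strain alone, both wild types as control, and leaving out each library or both that stand apart. The last of these without surrogate variables, and its use on the other gene lists and the ratios, were added after the data were seen.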

Additional observations from a re-analysis of the deposited data

Results flagged for a closer look

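Of 165 groups of 5 cultures (33 genes in 5 strains), 11 held a culture far from the other 4, with a gap to its nearest neighbour of more than the 95% critical value of Dixon's test. Chance alone gives such a flag in about 5% of groups. YFA1131 replicate 2 was the highest of its strain for HMG1 (147 CPM, others 133 to 137), ERG7 (162 CPM, others 144 to 148) and ERG2 (239 CPM, others 193 to 206). OAF1(L63S) replicate 5, from harvest batch 1, was the lowest of its strain for NCP1, the electron donor to the sterol oxygenases (253 CPM, others 322 to 344), ARE1 (60.3 CPM, others 73.9 to 76.3) and ECM22 (35.5 CPM, others 59.8 to 64.5). The library labelled OLE1(FAR) replicate 3, which stands apart, was the highest of its strain for ERG8 (158 CPM, others 126 to 134) and the lowest for IDI1, isopentenyl diphosphate isomerase (152 CPM, others 174 to 181). RGT2(V539I) replicate 5 was the highest of its strain for ERG28 (40.8 CPM, others 28.6 to 31.3) and the lowest for ERG3 (289 CPM, others 313 to 322). YFA1130 replicate 3, its 1 culture from harvest batch 1, was the lowest of its strain for ECM22 (40.0 CPM, others 58.3 to 63).

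The changes in OAF1(L63S) and in OLE1(FAR), both against YFA1130, differed by the direct test for 6 genes, with log2 differences of -0.13 for ERG13, -0.55 for HMG2, 0.20 for ERG8, 0.32 for ERG3, 0.25 for ERG5 and 0.39 for ARE2. HMG2 had fitted changes of -0.21 in OAF1(L63S) and 0.34 in OLE1(FAR), and ERG3 of 0.18 and -0.14.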

How the results depend on the processing

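The number of the 33 genes called moved with the model. Without surrogate variables it was 0 for OAF1(L63S), OLE1(FAR) and YFA1131 against YFA1130, where 0.175, 0.0875 and 0.07 percent of all tested genes were called. For OAF1(L63S) against OLE1(FAR) it was 1 (0.56 percent of all tested genes), and between harvest batches 2 and 3 it was 1. Between harvest batch 1 and the later batches it was 9, to be read beside the share of all tested genes given with ECM22 above. Without the replicate block it was 1 for OAF1(L63S) (0.7 percent of all tested genes), 0 for OLE1(FAR) (0.175 percent) and 0 for YFA1131 (0.14 percent). In that setting it was 2 for OAF1(L63S) against OLE1(FAR) (3.12 percent) and 6 for harvest batch 1. With strain alone it was 0 in all 4 comparisons between strains that held a call above, where at most 0.0525 percent of all tested genes were called. It was 6 for harvest batch 1 with strain and harvest only. With 4 library preparation batches it was 0 for OLE1(FAR) (0.0875 percent of all tested genes) and for YFA1131 (0.193 percent), and 2 for OAF1(L63S) against OLE1(FAR) (1.52 percent). With no filter it was 0 for YFA1131 (0.156 percent of all tested genes), and without both libraries that stand apart 5 for YFA1131 (2.82 percent). Without both and without surrogate variables it was 13 for harvest batch 1. The harvest counts of 6 and 13, and the 1 between harvest batches 2 and 3, are given without the share over all tested genes. They therefore do not describe these genes in particular. When each library was left out in turn, RGT2(V539I) had 0 to 1 called genes and OAF1(L63S) against its wild type 0 to 3. The share of all tested genes called ran from 0.245 to 0.84 percent and from 0.315 to 1.21 percent in these fits. OLE1(FAR) had 0 to 2, YFA1131 0 to 3 and the direct comparison of OAF1(L63S) with OLE1(FAR) 2 to 5. For OLE1(FAR) and YFA1131 the share of all tested genes ran from 0.263 to 1.26 percent and from 0 to 0.595 percent. In the direct comparison the share was 2.03, 2.45 and 2.01 percent without OAF1(L63S) replicate 1, 2 and 3, where 2, 5 and 3 genes were called. Its share in the other fits is not given here. Harvest batch 1 had 0 to 5, and batches 2 and 3 differed in 0 to 1. These harvest counts are also given without the share, so they do not describe these genes in particular. The causes were not tested.

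Among the genes singled out in each comparison, signs turned only in the harvest comparisons. Signs of the other genes are not given by setting here. HMG2 in harvest batch 1 was -0.16 without both libraries that stand apart and -0.029 also without surrogate variables. ARE2 was 0.079 without both, and ERG8 0.0048 also without surrogate variables. ERG28 was 0.073 without surrogate variables, 0.029 with strain and harvest only and 0.14 without both and without surrogate variables. ECM22 (0.03 in the model used) was -0.061 with at least 10 counts, -0.47 without surrogate variables, -0.24 without the replicate block, -0.20 with 4 library preparation batches, -0.40 with strain and harvest only, -0.52 without both libraries and -0.55 also without surrogate variables. In the same order, without the settings on counts, HMG1 (0.04) was -0.14, -0.012, -0.0084, -0.10, -0.28 and -0.18, and IDI1 (0.00069) was -0.040, -0.016, -0.018, -0.048, -0.30 and -0.051. Leaving out 1 library gave -0.26 to 0.036 for ECM22, -0.059 to 0.078 for HMG1 and -0.071 to 0.096 for IDI1. ARE2 between batches 2 and 3 was 0.073 without surrogate variables and 0.053 with strain and harvest only.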
